A study of Mus musculus with 10 samples.

Results

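The last day of a culture of mouse embryonic stem cells on the way to neuromesodermal progenitors was examined at the level of chromatin accessibility, by setting untreated day 7 cells against day 6 cells. The 4 libraries of these groups, 2 each, were chosen by their labels from the 10 libraries of the series, and all 246799 merged regions of open chromatin entered the description. All cells were wild-type ES-Bruce4, a C57BL/6 line maintained on embryo fibroblasts before plating. Both groups received bFgf at 10 ng/ml from the start and 5 µM CHIR99021, which activates Wnt signalling, from day 2. Neither received Gdf11, and the day of collection is the difference that the labels record. The medium's supplement came with or without vitamin A, a precursor of retinoic acid, and the labels do not say which libraries had it. Each library was made from 50000 cells by ATAC-seq, which reads out where a transposase can cut the genome. In such bulk libraries a change in the share of cells of 1 type and a change within each cell cannot be told apart. Nothing in the labels says that the 2 libraries of a day came from separate cultures, and p-values measure the spread between libraries only.

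Neuromesodermal progenitors are cells of the late embryo's caudal end that give rise to both spinal cord and the mesoderm beside it. On the neural path, retinoic acid from the neighbouring mesoderm opposes Fgf and Wnt signals, SoxB factors maintain the neural progenitor, Hox genes record the position along the body axis, and BMP and Wnt signals from the roof turn on dorsal genes such as Pax3 and Pax7. Proneural factors such as Neurog1 then start neurogenesis, held back by Notch signalling.

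The day 6 libraries held 12335735 and 7403576 counts and the day 7 libraries 11576260 and 7501320. Mitochondrial regions took 9.245% to 12.88% of these counts. Spearman correlations across regions were 0.85 between the day 6 libraries, 0.861 between the day 7 libraries, and 0.8 to 0.858 between libraries of different days. The spread within a day was thus about as wide as the spread between days over the whole set of regions. The 10000 most abundant regions took 38.61% and 38.78% of the counts on day 6 and 40.99% and 40.04% on day 7, and the part of this rise in the results below was not tested.

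Far more regions opened than closed. A region was called when its adjusted p in edgeR's quasi-likelihood test was under 0.05. Of 173175 regions tested, 1686 were called higher on day 7, which is 0.974%, and 358 were called lower, which is 0.207%. Calls in either direction were thus 2044, or 1.18%. The regions called higher had a median log2 change of 1.1 and a median width of 562.5 bp, against 233 bp over all tested regions. Those called lower had a median change of -1.62 and a median width of 397.5 bp. At least 2-fold change was reached by 1054 of the regions called higher and 322 of those called lower. In every called region the day 6 and day 7 libraries did not overlap, but that was also so for 43.5% of all tested regions. Without day 7 replicate 2 the calls fell to 221 higher and 31 lower, without day 6 replicate 2 to 273 and 51, without day 6 replicate 1 to 683 and 74, and without day 7 replicate 1 to 851 and 153. With library size as the only scaling 1084 regions were higher and 459 lower, so 70.3% of the calls were higher instead of 82.5%. That scaling moved the median log2 change of all genes by -0.1. After cyclic loess, which also levels a trend with abundance, 498 were higher and 196 lower, or 71.8% higher.

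**Figure D1:**
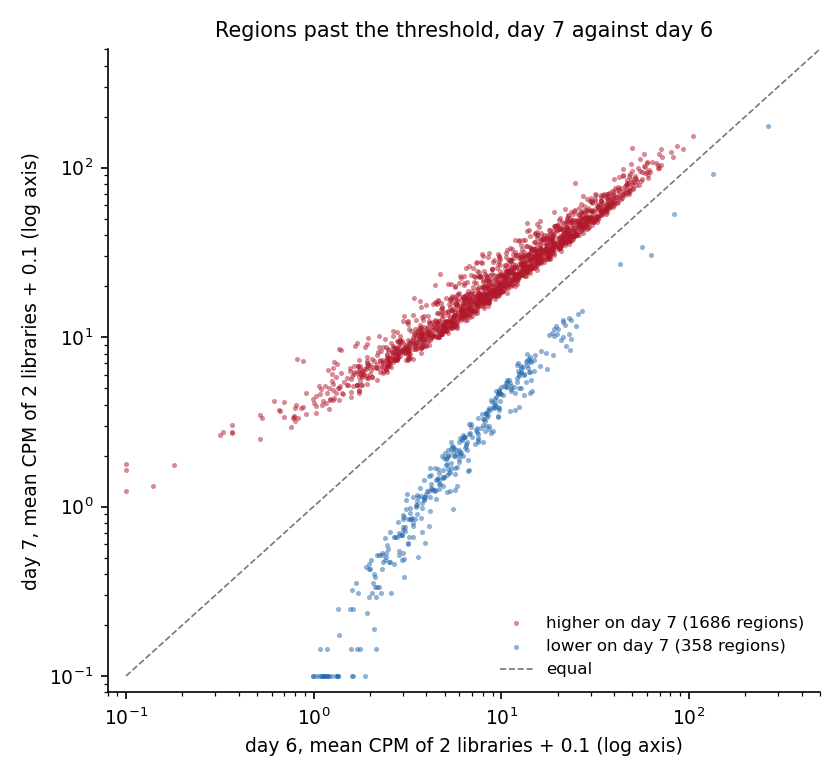
Mean CPM (counts scaled to the library size) of the 2 day 6 libraries (horizontal) and the 2 day 7 libraries (vertical) for each region past the threshold, on log axes after adding 0.1. The 1686 regions called higher (red) form a wide band reaching high levels, while most of the 358 called lower (blue) lie at low levels on day 7, some of them at 0.

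The regions called higher lay away from gene ends and were mostly of high abundance. Only 5.58% of them lay within 1 kb of a gene end, against 14.9% of all tested regions. Of those called lower, 8.66% did. Regions inside a gene span but over 1 kb from its ends made up 45% of the regions called higher, and regions over 50 kb from any protein-coding gene a further 28.6%, against 40.1% and 20.8% of all tested regions. The 25% of regions with the highest abundance held 85.5% of the regions called higher and 51.7% of those called lower. Within that 25%, 33.7% of regions but 6.04% of those called higher lay within 1 kb of a gene end.

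Of the 6 regions called higher with the smallest p, only the region beside Zic5 lay within 50 kb of a protein-coding gene. The others were not assigned to a gene, and the nearest gene is given for their position only. The first was chr1:177561715-177562817, which lay 110951 bp from Zbtb18, a gene for a zinc finger repressor of the developing brain. Its level was 27.6 and 21.6 CPM on day 6 and 72.1 and 90.6 CPM on day 7, a log2 change of 1.71 ± 0.17 (standard error, adjusted p = 2.4e-09). The region chr14:122452713-122454059 lay 5101 bp from Zic5, which codes for a zinc finger factor of the dorsal neural tube, and rose from 48.7 and 50.3 to 127 and 134 CPM (adjusted p = 2.51e-08). A region 66562 bp from Pou3f3, a POU factor gene of neural progenitors, stood at chr1:42628666-42629206. It had the steepest change of the 6 regions named for their small p, 2.28 ± 0.27, from 5.59 and 3.69 to 18.4 and 28.6 CPM. The rest of these 6 had Alg10b, Zfp608 and Myt1l as nearest genes, at distances of 69660, 138507 and 191122 bp. Their log2 changes were 1.75, 1.87 and 1.89. All 6 regions were at or below 9.28 CPM on day 2, and their mean level rose at each step to day 7. The calls of all 6 held with every library left out in turn.

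Among the closing regions, the one with the smallest p lay at chr14:101268964-101269405, 68560 bp from Prr30. It measured 0.418 and 0.784 CPM on day 2, 31 and 26.1 on day 3, 24.1 and 23 on day 6, and 8.82 and 10.6 on day 7. Its log2 change in the last day was -1.29 ± 0.22 (adjusted p = 1.53e-04). The region thus closed after having opened between day 2, when the Wnt activator was added, and day 3. Regions near Isx, 3866 bp away, and inside Esrrg had the same shape, with day 2 levels of at most 0.523 CPM, day 3 levels of 13.3 to 24.8 CPM and log2 changes in the last day of -1.44 and -1.73. Esrrg codes for an orphan nuclear receptor. A region inside Hhat, which codes for the enzyme that attaches palmitate to Hedgehog proteins, fell from 65.2 and 60.3 to 38.5 and 22.1 CPM. A region 27835 bp from Foxb2, a forkhead gene of the dorsal neural tube, held 22 and 13 counts on day 6 and none in either day 7 library, so it was at least 10.6-fold lower against a floor of 3 counts over the group. The Isx, Hhat and Esrrg regions were not called without day 7 replicate 2, and the Esrrg region was not called without day 6 replicate 1.

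Earlier levels were examined in both sets of regions. The 1686 regions called higher had median levels of 2.09 and 2.09 CPM on day 2, 4.08 and 3.75 on day 3, 10.2 and 8.89 on day 6, and 20.2 and 23.1 on day 7. Their level had thus risen at each step since day 2. Peaks in both libraries were present at 39.6% of them on day 2, 53.3% on day 3, 79.4% on day 6 and 99.3% on day 7, so most were open sites that opened further. The 358 regions called lower had medians of 3.24 and 2.75 CPM on day 2, 5.22 and 4.69 on day 3, 5.35 and 5.34 on day 6, and 1.84 and 1.77 on day 7. On day 3, 108 of these 358 were at least 4-fold above day 2, or 30.2%, against 13.2% of the regions called higher and 8.49% of all tested regions. With no minimum fold, day 3 was above day 2 in 61.5% of the regions called lower, 72.7% of those called higher and 53.2% of all tested regions. Day 2 was above day 6 in 38.3%, 13.5% and 46.9%. The day 6 and day 7 levels chose these regions and are a description.

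**Figure D2:**
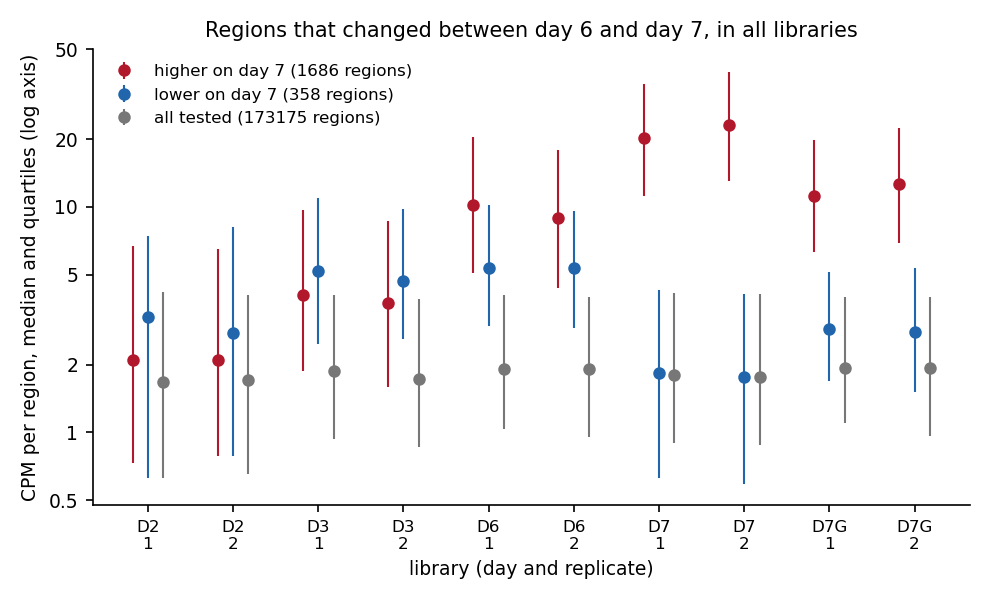
CPM per region in each of the 10 libraries on a log axis, as the median (point) with the lower and upper quartile (bar), for regions called higher on day 7 (red), called lower (blue) and all tested (grey). The red medians go from 2.09 CPM on day 2 to 20.2 and 23.1 CPM on day 7, and the blue medians from 5.35 and 5.34 CPM on day 6 to 1.84 and 1.77 CPM on day 7.

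With Gdf11 for 24 h at 50 ng/ml, day 7 cells had medians of 11.2 and 12.6 CPM at the regions called higher and 2.87 and 2.8 CPM at the regions called lower. The mean of the Gdf11 libraries lay between the day 6 and the untreated day 7 mean in 1113 of the 1686 regions called higher and in 263 of the 358 called lower. These regions were selected on the day 7 libraries, which makes day 7 the extreme by construction, and no test of the Gdf11 group was made on them.

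The separate peak lists of the libraries also held more gains than losses, by a smaller factor than the calls. A peak was present in both day 7 libraries and in neither day 6 library at 5892 regions, and the reverse held at 2858. Of the 5788 gained regions that were tested, 153 were called higher and none lower. Of the 2845 lost ones that were tested, 99 were called lower and none higher. Peak numbers differ with depth: peaks lay in 98801 and 74118 regions in the day 6 libraries and in 110486 and 81080 in the day 7 libraries. The part of this difference in the gains was not tested.

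The dorsal neural loci given as markers, Pax3, Pax7 and Neurog1, all rose. A gene's value here is the sum of counts over the regions nearest to it within 50 kb, so it is accessibility and not expression, and being nearest to a gene is no evidence that a region controls it. Of 19041 genes tested, 681 were called higher, or 3.58%, and 129 lower, or 0.677%, which makes 810 in either direction, or 4.25%. Pax3 codes for a paired-box factor of the dorsal neural tube and early somites. Its 29 regions summed to 204 and 182 CPM on day 6 and to 290 and 317 CPM on day 7, a log2 change of 0.65 ± 0.08 (adjusted p = 5.33e-06). Pax7, its paralogue, was at 137 and 128 CPM on day 6 and 200 and 241 CPM on day 7, a change of 0.73 ± 0.10 (adjusted p = 7.04e-06). Neurog1, a basic helix-loop-helix (bHLH) proneural factor, was at 64.2 and 62 CPM and then at 99.5 and 101 CPM, a change of 0.67 ± 0.11 (adjusted p = 7.09e-05). At all 3 loci both day 7 libraries stood above both day 6 libraries, and the calls held without each library in turn and under every other setting tried. In every gene given below with its 4 values except Tubb3, the libraries of the 2 days did not overlap, as was so for 53% of all genes tested. The loci had been proposed as markers with earlier results of these data known.

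**Figure D3:**
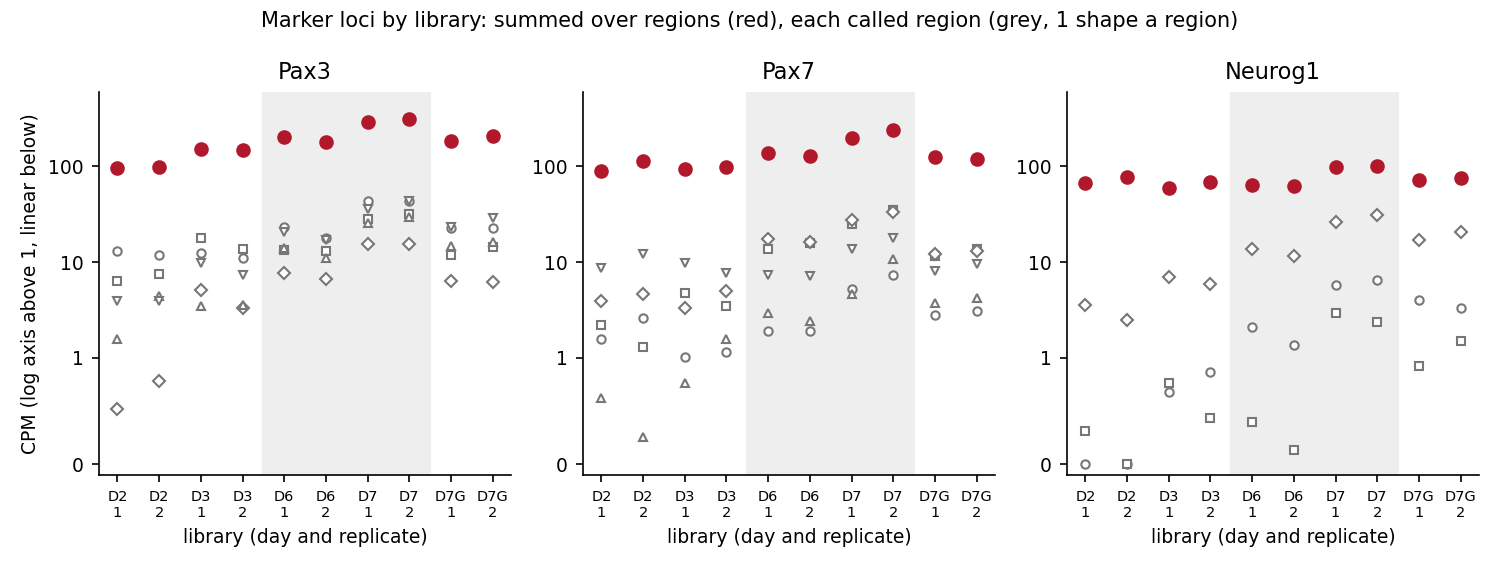
CPM at Pax3, Pax7 and Neurog1 in each library, summed over all assigned regions (red) and at each called region (grey, 1 shape a region), on an axis that is log above 1 and linear below. Inside the shaded part, day 6 and day 7, every red and grey value of day 7 lies above the day 6 values of the same locus or region.

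The called regions at these loci lay inside the genes or just beside them. At Pax3, on chr1:78101267-78197136, 5 of 29 regions were called higher and none lower, 4 of them inside the gene span and 1 at 587 bp from its end. The region chr1:78139257-78139842 rose from 23.3 and 18.1 to 43.9 and 43.7 CPM. Closest to the gene end, chr1:78197723-78198354 rose from 20.7 and 17.1 to 36.1 and 43.9 CPM. The 5 log2 changes ran from 1.07 to 1.17. Smaller changes were less likely to pass the threshold, so this range does not describe the other regions of the locus. At Pax7, on chr4:139737059-139833530, 5 of 40 regions were called higher. They included chr4:139807436-139808023 deep in the gene span, which went from 13.7 and 16 to 25.2 and 34.8 CPM, and chr4:139833138-139833710 over the gene end, which went from 7.35 and 7.25 to 13.7 and 17.8 CPM. On day 2 the region over the gene end had 8.68 and 12.2 CPM, so day 6 was its low point. At Neurog1, 3 of 17 regions were called higher, within 4466 to 5625 bp of the gene span. The most accessible, chr13:56257805-56258667, rose from 13.7 and 11.5 to 26 and 31.4 CPM. A small neighbour, chr13:56256888-56257016, held 5 and 1 counts on day 6 and 33 and 16 on day 7. With loess normalization 4 of the 5 Pax7 regions, 2 of the 5 Pax3 regions and 1 of the 3 Neurog1 regions were not called. The single regions also depended more on each library than the sums did. Without day 7 replicate 2, 2 Pax3 regions and none at Pax7 or Neurog1 were called, and without day 6 replicate 2, 1 Pax3 region and none at the other loci. Without day 6 replicate 1, 4 Pax3 regions, none at Pax7 and 1 at Neurog1 were called, and without day 7 replicate 1, 4, 4 and 1.

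Promoter windows show where these changes lie at or near a start site. Of 16552 start-site windows that overlapped a tested region, from 250 bases before to 50 bases after a start site in RefSeq (GRCm38.p6, the mm10 build), 70 overlapped a region called higher and 17 one called lower. Those of Pax7, Hoxa2, Fabp7 and Rfx4 among the former and of Cyp26a1 among the latter are shown. These are genes of the patterning, Hox, neural progenitor and retinoic acid lists whose own window overlapped a called region. The promoter regions of Stra6, the retinol transporter gene of the retinoic acid list, and of Tgif1 also rose, from 23.9 and 20.4 to 31.8 and 40.5 CPM and from 15.4 and 11.5 to 21.5 and 29.9 CPM (adjusted p = 0.0409 and 0.0313), and are not printed. Each sequence is printed on its own strand, 5′ to 3′, with capitals at matches on either strand to 14 short sets of letters searched, among them the E-box CAGATG of Neurog factors, the Sox core AACAAT, the Meis core TGACAG and the nuclear receptor element AGGTCA.
Pax7: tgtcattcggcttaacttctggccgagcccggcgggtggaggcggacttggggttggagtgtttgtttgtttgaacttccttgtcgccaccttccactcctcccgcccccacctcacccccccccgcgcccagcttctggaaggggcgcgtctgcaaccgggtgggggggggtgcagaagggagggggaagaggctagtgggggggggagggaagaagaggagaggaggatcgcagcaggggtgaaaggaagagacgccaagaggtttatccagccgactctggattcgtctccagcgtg
Hoxa2: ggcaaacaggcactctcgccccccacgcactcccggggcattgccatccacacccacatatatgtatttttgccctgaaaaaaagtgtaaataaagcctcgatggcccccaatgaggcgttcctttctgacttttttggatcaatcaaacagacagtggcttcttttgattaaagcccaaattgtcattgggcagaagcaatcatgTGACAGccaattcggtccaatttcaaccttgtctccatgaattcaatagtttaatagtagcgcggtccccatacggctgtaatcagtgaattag
Fabp7: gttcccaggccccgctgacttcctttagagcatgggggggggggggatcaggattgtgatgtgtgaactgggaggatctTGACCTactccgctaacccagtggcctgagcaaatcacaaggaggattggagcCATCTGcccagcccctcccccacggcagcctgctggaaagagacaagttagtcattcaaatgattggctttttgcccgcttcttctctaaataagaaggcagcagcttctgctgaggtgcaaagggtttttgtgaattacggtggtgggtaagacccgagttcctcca
Rfx4: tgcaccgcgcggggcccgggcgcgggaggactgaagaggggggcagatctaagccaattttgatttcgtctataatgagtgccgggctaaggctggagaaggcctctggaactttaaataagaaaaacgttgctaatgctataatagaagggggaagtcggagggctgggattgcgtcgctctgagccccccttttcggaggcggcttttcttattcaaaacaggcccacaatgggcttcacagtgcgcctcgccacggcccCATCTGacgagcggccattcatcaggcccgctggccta
Cyp26a1: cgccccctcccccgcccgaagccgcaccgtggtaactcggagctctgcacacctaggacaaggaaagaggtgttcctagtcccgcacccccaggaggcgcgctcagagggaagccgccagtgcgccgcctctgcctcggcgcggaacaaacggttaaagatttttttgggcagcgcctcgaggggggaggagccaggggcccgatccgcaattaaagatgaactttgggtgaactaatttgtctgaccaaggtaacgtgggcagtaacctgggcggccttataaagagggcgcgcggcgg
The Pax7 window, at chr4:139832919-139833218 on the minus strand, and the Cyp26a1 window, at chr19:37697558-37697857 on the plus strand, held none of the 14. The called region at Pax7, chr4:139833138-139833710, overlaps only the 5′ part of its window and lies on a start site of Gm46873. The Hoxa2 window (chr6:52164782-52165081, minus) held 1 Meis core, TGACAG at bases 207 to 212. The called region there, chr6:52164999-52165375, overlaps only the 5′ part of the window and does not hold this core. The Fabp7 window (chr10:57784673-57784972, plus) held the E-box at bases 133 to 138, read as CATCTG on this strand, and the receptor element, read as TGACCT, at bases 80 to 85. The Rfx4 window (chr10:84755798-84756097, plus) held the E-box at bases 263 to 268. The region overlapping part of the Hoxa2 window rose from 8.47 and 9.17 to 17.2 and 20.8 CPM (log2 change 1.10 ± 0.24, adjusted p = 0.00498). The region over the Fabp7 promoter rose from 13.6 and 12 to 24 and 24.7 CPM (0.92 ± 0.20, adjusted p = 0.00712). Over the Rfx4 promoter it was 16.4 and 14.6 CPM and then 21.2 and 34 CPM (0.81 ± 0.20, adjusted p = 0.0203). Over the Cyp26a1 promoter accessibility fell from 5.43 and 7.66 to 2.25 and 1.33 CPM (-1.78 ± 0.37, adjusted p = 0.00362). Across all windows the Sox core was in 15.7% of the 70 over regions called higher, in none of the 17 over regions called lower and in 6.05% of all 16552. The E-box CAGATG was in 20%, none and 11.8%, the E-box CAGCTG in 28.6%, 11.8% and 16.1%, the nuclear factor I element TTGGCA in 22.9%, 5.88% and 10.8%, and AGGTCA in 22.9%, 11.8% and 12%. The posterior Hox and Cdx core TTTATGG was in 2.86%, none and 1.67%. The 17 windows over regions called lower are too few to read a share of 0 from, and a match of letters is not a bound site.

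Genes of the neural progenitor gave the largest number of calls among the 24 lists. Of 18 SoxB and other neural progenitor genes, 12 rose and none fell, and their median log2 change was 0.43, against 0.05 over all 19041 genes. Sox21 and Sox2, which code for SoxB factors, had the smallest p. Sox21 went from 129 and 134 to 195 and 200 CPM (0.59 ± 0.09, adjusted p = 3.62e-05) and Sox2 from 155 and 163 to 207 and 266 CPM (0.57 ± 0.09, adjusted p = 0.00014). At Sox2 the 2 day 7 libraries lay further apart than the day 6 libraries. Rfx4, for a winged-helix factor of the neural tube, went from 103 and 94.4 to 132 and 161 CPM (0.56 ± 0.10, adjusted p = 0.00033). The largest changes in the list were at Fabp7, a fatty acid binding protein gene of radial glia, with 0.77 ± 0.17, and Nes, which codes for the intermediate filament nestin, with 0.71 ± 0.13. Sox1, Hes5, Notch1, Pou3f2, Pou3f3, Zeb1 and Sox9 also rose, by 0.34 to 0.54. Sox3, the remaining SoxB1 gene, had 38.9 and 36.8 CPM and then 40.5 and 41.5 CPM and did not pass (0.11 ± 0.14, adjusted p = 0.717). The count of 12 became 9 with library size only and 9 with loess, 10 and 4 with day 6 replicates 1 and 2 left out, and 11 and 1 with day 7 replicates 1 and 2 left out. Of the genes named in full here, Sox21 kept its call throughout these alternatives, while Sox2 and Rfx4 lost theirs without day 7 replicate 2.

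Dorsal patterning genes passed the threshold in a part of the group. Of 16, 6 rose and none fell (median 0.31), and the count stayed between 4 and 5 with a library left out. Beside Pax3 and Pax7 these were Zic5 and Zic4, for zinc finger factors of the dorsal neural tube, Wnt1, a roof plate ligand gene, and Msx1, a BMP-responsive homeobox gene. Zic5 was at 150 and 151 CPM on day 6 and 242 and 254 CPM on day 7 (0.72 ± 0.09, adjusted p = 4.02e-06). Zic4 was at 231 and 234 and then at 331 and 365 CPM (0.58 ± 0.09, adjusted p = 1.07e-04). Wnt1 and Msx1 changed by 0.55 ± 0.14 and 0.39 ± 0.11. The other 10 did not pass. Among them Msx2, Olig3, Msx3 and Zic1 had 0.36 ± 0.12, 0.33 ± 0.12, 0.29 ± 0.13 and 0.25 ± 0.10. Atoh1, of the dorsalmost neurons' progenitors, had -0.11 ± 0.11, and Lmx1a, of the roof plate, 0.01 ± 0.10. Gsx1, of dorsal interneuron progenitors, had 0.01 ± 0.11. Of all 16, 14 changes were above 0 and 2 below. At an unadjusted p under 0.05 in edgeR, 10 were higher and 0 lower.

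In the ventral and intermediate list, 5 of 15 rose and 1 fell (median 0.20). Those that rose were Nkx2-9, Ptch1, Dbx2, Prdm12 and Pax6. Ptch1 codes for the Hedgehog receptor and target, and went from 205 and 203 to 254 and 270 CPM (0.36 ± 0.08, adjusted p = 0.00748). Foxa2, of the floor plate and also an endoderm marker, fell from 88.1 and 74.4 to 66.6 and 59.5 CPM (-0.37 ± 0.11, adjusted p = 0.0453). Its call was lost with each of the 4 libraries left out, with DESeq2 and with RLE factors. With day 7 replicate 1 left out 3 genes rose, and with any other library left out no gene of this list was called. With loess 2 rose and with library size only 3.

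Proneural and Notch genes rose in 7 of 19 cases, with none lower and a median of 0.18. Neurog3, a proneural gene best known from the pancreas, had the largest change, from 20.9 and 14 to 33 and 44.6 CPM (1.11 ± 0.17, adjusted p = 4.41e-05). Its sum rests on 6 regions within 50 kb, and with regions within 10 kb only it was -0.32. Dll1, for a Notch ligand on nascent neurons and in presomitic mesoderm, went from 108 and 111 to 154 and 169 CPM (0.56 ± 0.10, adjusted p = 4.63e-04). Hes5, Hes3 and Notch1, on the Notch side, rose by 0.54, 0.61 and 0.44. Neurog2 did not pass, at 178 and 156 CPM and then 206 and 196 CPM (0.27 ± 0.09, adjusted p = 0.0878). Of the genes that follow the proneural step in a neuron, Neurod1 and Neurod4 were at levels near those of day 6. Neurod1 had a change of -0.01 ± 0.12 and Neurod4 of -0.04 ± 0.12. None of 20 genes of postmitotic neurons was called in either direction in edgeR, although 2 were higher and 2 lower at an unadjusted p under 0.05. DESeq2 called none, and library size only and loess each called 1 lower. Isl1, the member with the smallest p in edgeR, had 75.4 and 76.9 CPM and then 63.8 and 55.8 CPM (-0.34 ± 0.11, adjusted p = 0.0647). Tubb3, a neuronal tubulin gene, was at 25.3 and 28 CPM on day 6 and 25.8 and 29.2 CPM on day 7. The median of this list was 0.03, and -0.07 with library size only. The proneural count was 7 with library size only and with loess, 6 and 3 with day 6 replicates 1 and 2 left out, and 2 with day 7 replicate 2 left out.

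**Figure D4:**
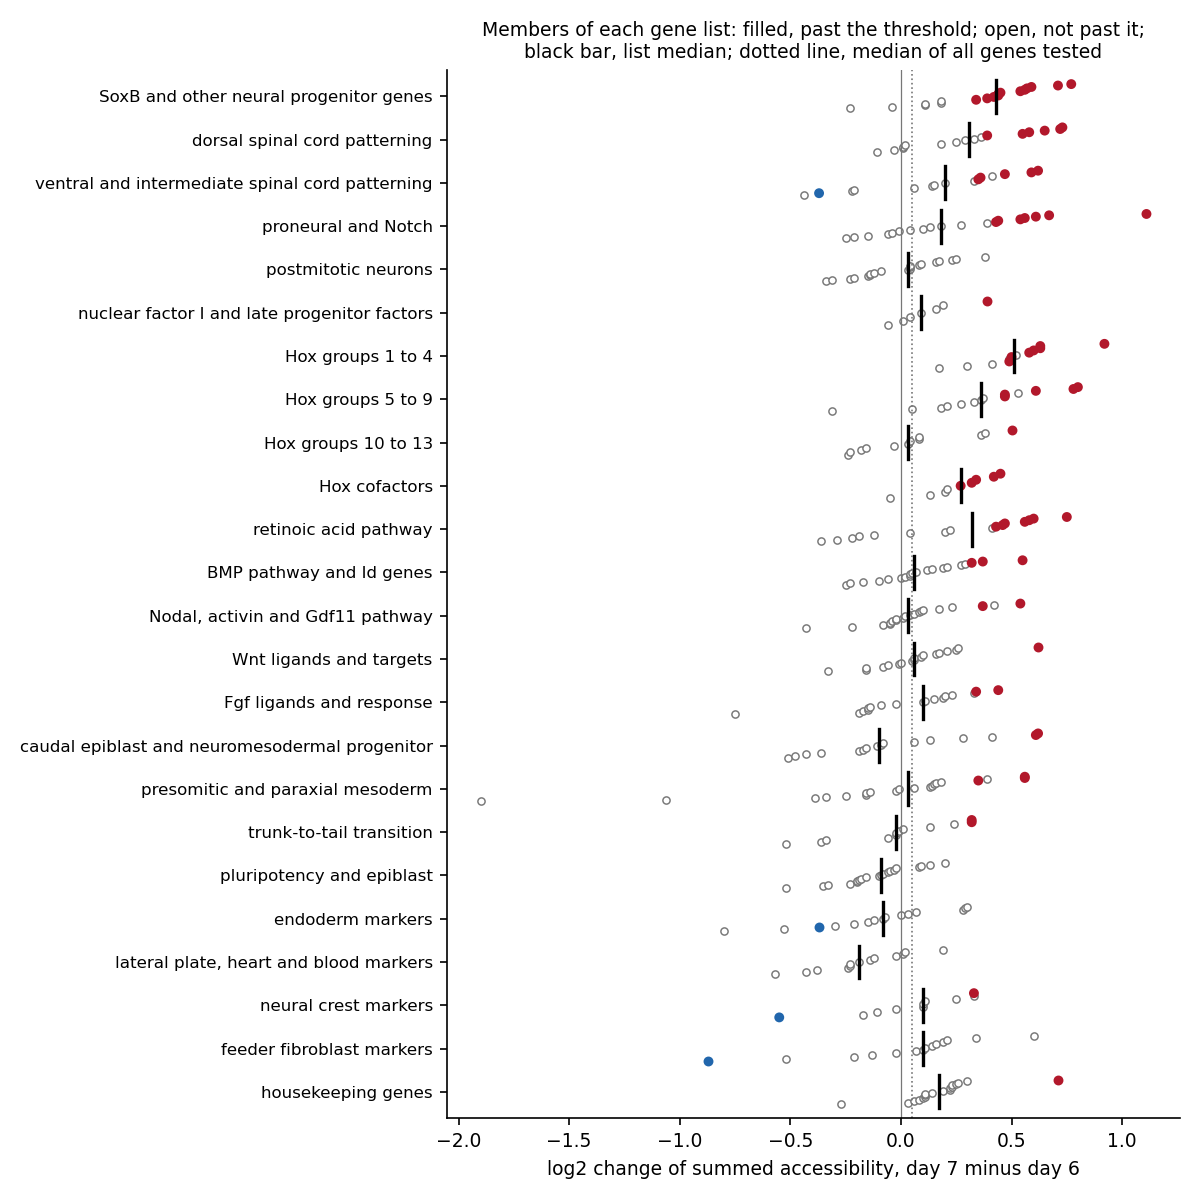
Log2 change of summed accessibility, day 7 minus day 6 (horizontal), for each tested member of the 24 gene lists (rows). Filled points passed the threshold, higher in red and lower in blue, open points did not, the black bar is the list's median and the dotted line the median of all genes tested, 0.05. Filled red points are most frequent in the neural progenitor list and in Hox groups 1 to 4, and the pluripotency and postmitotic neuron lists have none.

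Among Hox genes, most calls were at the 3′ side of the clusters, the genes that are switched on first and mark the hindbrain and neck. In groups 1 to 4, 7 of 12 genes rose, none fell and the median was 0.51. In groups 5 to 9, 5 of 14 rose with a median of 0.36, and in groups 10 to 13, the genes of lumbar and tail levels, 1 of 12 rose with a median of 0.03, which was -0.07 with library size only. Hoxd3 went from 187 and 175 to 261 and 283 CPM (0.58 ± 0.09, adjusted p = 5.83e-05), Hoxc4 from 147 and 145 to 203 and 239 CPM and Hoxb3 from 106 and 102 to 142 and 181 CPM, with log2 changes of 0.60 and 0.63. The largest Hox changes were at genes with few regions nearest to them. Hoxa2, with 4 regions, had 17.5 and 15.3 and then 30.3 and 32.6 CPM (0.92 ± 0.18), Hoxb5, with 2, 14.2 and 14.4 and then 22.4 and 27.8 CPM (0.80 ± 0.19), and Hoxc5, with 1, 43.9 and 50.2 and then 75.1 and 86.8 CPM (0.78 ± 0.12, adjusted p = 7.73e-05). Hoxa10 was the single posterior gene past the threshold, from 37.2 and 31.7 to 46.8 and 51.4 CPM (0.50 ± 0.15, adjusted p = 0.0417), and it lost its call with each library left out. Neighbouring Hox genes are so close that a region is often nearest to 1 of several, so clusters are better resolved than genes. The count in groups 1 to 4 was 7 with library size only and with loess, 6 and 4 with day 6 replicates 1 and 2 left out, and 8 and 1 with day 7 replicates 1 and 2 left out. In groups 5 to 9 it was 3 with either scaling, 3 without day 7 replicate 1 and 1 without each of the other libraries.

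At single regions, 20 assigned to Hox genes were called higher and none lower, in all 4 clusters. They were 17 of 136 tested regions in groups 1 to 4, 3 of 76 in groups 5 to 9 and 0 of 63 in groups 10 to 13. Over all tested regions 0.974% were called higher and 0.207% lower. HoxB and HoxC had 6 each and HoxD and HoxA 4 each. The steepest was chr2:74730319-74730827 inside Hoxd3, whose mean rose from 5.12 to 20.4 CPM (log2 change 1.96, adjusted p = 5e-06). It was followed by chr11:96324210-96324547 inside Hoxb3, whose mean rose from 5.39 to 17.4 CPM. The called region of the highest paralogue group, assigned to Hoxb9 from 20045 bp away, was chr11:96250949-96251285, with a mean of 5.7 and then 12.1 CPM. The 63 regions of groups 10 to 13 are too few, at the share over all regions, to read an absence of calls from.

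Of 9 cofactor genes, whose TALE homeodomain products bind DNA together with Hox proteins, 5 rose, namely Meis1, Meis2, Meis3, Pknox2 and Pbx4. Meis1 went from 280 and 268 to 346 and 385 CPM (0.42 ± 0.08, adjusted p = 7.79e-04), and Meis2, with 65 regions, from 466 and 445 to 554 and 544 CPM (0.27 ± 0.07). The list's median was 0.27. With loess 1 gene rose and with library size only 2, and 2, 0, 3 and 0 rose without day 6 replicates 1 and 2 and day 7 replicates 1 and 2.

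Retinoic acid genes rose on the side of receptors, carriers and synthesis. Of 16, 7 rose and none fell (median 0.32). Crabp2, for a protein that carries retinoic acid to its receptors, went from 77.3 and 78.8 to 118 and 145 CPM (0.75 ± 0.11, adjusted p = 3.59e-05). The receptor genes Rarb, itself a known target of retinoic acid, and Rara went from 311 and 300 to 398 and 452 CPM (0.47 ± 0.08) and from 73 and 80.3 to 101 and 130 CPM (0.58 ± 0.11). Rxra, the partner receptor gene, and Crabp1 rose by 0.46 and 0.56. Aldh1a2, for the enzyme that makes retinoic acid, rose by 0.60 ± 0.12, from 50 and 46.8 to 66.7 and 81.2 CPM, and Rdh10, for the enzyme before it, by 0.43 ± 0.11. Cyp26a1, for the enzyme that degrades retinoic acid, had 41.9 and 39.3 CPM and then 30.5 and 33 CPM and did not pass as a sum (-0.36 ± 0.15, adjusted p = 0.166), whereas the region over its promoter fell. The count was 6 with library size only and with loess, 4 and 3 without day 6 replicates 1 and 2, and 6 and 1 without day 7 replicates 1 and 2.

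Genes of the caudal epiblast did not share a direction. Hes3 and Wnt3a rose out of 16, none fell, and the median was -0.10. Wnt3a, for the Wnt ligand of the caudal end, went from 30.8 and 29.3 to 45.3 and 47.4 CPM (0.62 ± 0.13, adjusted p = 0.00292), and stood at 45.7 and 43.2 CPM with Gdf11. Brachyury (T), which marks the mesodermal side of the progenitor, had 32.2 and 26.4 CPM and then 37.4 and 41.4 CPM (0.41 ± 0.15, adjusted p = 0.114). Several others were lower on day 7 without passing. Cdx1, of the caudal homeobox genes that control posterior Hox genes, had 31.5 and 32 CPM and then 22.9 and 21.5 CPM (-0.51 ± 0.15, adjusted p = 0.051). Nkx1-2 and Evx1, homeobox genes of the caudal epiblast, had changes of -0.48 ± 0.17 and -0.43 ± 0.14, and Cdx2 of -0.11 ± 0.10. With library size only 4 of the list were called lower and with loess 3, besides the 2 higher. No gene of the list was called without day 6 replicate 2 or without day 7 replicate 2.

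Signalling genes outside the retinoic acid pathway gave 1 to 3 calls higher per list and none lower, against 3.58% higher over all genes tested. Of 20 BMP genes, Id2, Id3 and Smad6, all of them known targets of the pathway, rose. Id2, for an inhibitor of bHLH factors, went from 168 and 165 to 233 and 256 CPM (0.55 ± 0.08, adjusted p = 3.86e-05), and with each library left out 1 of the 20 rose. The ligands Bmp4 and Bmp7 had changes of -0.06 ± 0.13 and 0.12 ± 0.10. In the Nodal, activin and Gdf11 list 2 of 20 rose, Smad3, which carries the signal to the nucleus, from 114 and 98.2 to 152 and 160 CPM (0.54 ± 0.10, adjusted p = 4.12e-04), and Tgif1, a corepressor gene. Gdf11 itself had -0.02 ± 0.12. Wnt3a was the single Wnt gene of 18 to rise, and the feedback gene Axin2 had 0.10 ± 0.09. Of 17 Fgf genes, Fgfr2 and Spry1 rose by 0.44 and 0.34. The calls of Spry1 and Tgif1 were lost with each library left out, with loess and with library size only. Fgfr2 kept its call only without day 7 replicate 1 among the leave-outs. Smad3 lost its call without day 6 replicate 2 and with regions within 10 kb only, as Spry1 also did. The medians of these 4 lists were 0.06, 0.03, 0.06 and 0.10, and each median was 0 or below with library size only.

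Paraxial mesoderm and trunk-to-tail genes gave 3 and 2 calls, all higher, and pluripotency genes gave none. Over all genes tested 3.58% were called higher and 0.677% lower. In the presomitic and paraxial mesoderm list 3 of 20 rose, Dll1, Meox1 and Hes7, and none fell (median 0.03). With a library left out at most 1 of the 20 rose. Meox1 and Hes7 lost their calls with each of the 4 libraries left out, and Hes7 also with loess, with library size only and with the 10 kb window. The defining presomitic genes Tbx6 and Msgn1 did not pass, and Tbx6 had 1 region at 0.879 and 0.821 CPM and then 0.36 and 0 CPM, near the detection floor. In the trunk-to-tail list Nr6a1, an orphan nuclear receptor gene of the trunk, and Sall1 rose by 0.32 each of 12, and these calls were lost with loess and with library size only. None of 20 pluripotency and epiblast genes was called in edgeR or DESeq2, 4 were lower at an unadjusted p under 0.05, and 2 were called lower with library size only. Pou5f1, the Oct4 gene, had 15.5 and 23 CPM and then 14 and 12.1 CPM (-0.52 ± 0.18, adjusted p = 0.098).

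Markers of cell types that the culture could also hold gave at most 1 call per list in each direction. Over all genes tested 3.58% were called higher and 0.677% lower. Of 15 endoderm markers none rose and Foxa2 fell, of 13 lateral plate, heart and blood markers none was called in edgeR or DESeq2 (2 lower at an unadjusted p under 0.05), and of 10 neural crest markers Ets1 rose and Foxd3 fell. Of 14 fibroblast markers Dcn, for the matrix protein decorin, fell from 9.19 and 14.2 to 6.75 and 5.6 CPM (-0.87 ± 0.24), and none rose. The Dcn call was lost without day 6 replicate 2, with either day 7 library left out and with the 10 kb window, and DESeq2 gave Dcn no adjusted p and called no fibroblast marker. Ets1 and Foxd3 were not called with the second library of either day left out, Foxd3 also not without day 6 replicate 1 or with the 10 kb window, and Ets1 not with loess or library size only. Their summed levels were 549 and 549 CPM on day 6 and 549 and 563 CPM on day 7 for endoderm, 455 and 487 and then 439 and 440 CPM for lateral plate, heart and blood, whose median change was -0.19, 427 and 427 and then 460 and 481 CPM for fibroblasts, and 640 and 631 and then 676 and 719 CPM for neural crest. Of 18 housekeeping genes 1 rose, the proteasome gene Psmb2, from 37.2 and 39.1 to 59.6 and 65.7 CPM, and their median was 0.17. Of 7 nuclear factor I and late progenitor genes, Sox9 rose by 0.39 ± 0.11, while Nfia and Nfib, of the later gliogenic programme, had 0.16 ± 0.07 and 0.01 ± 0.09. The Sox9 call was lost with the second library of either day left out, with loess, with library size only and with the 10 kb window.

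Outside the lists, the loci with most opening regions were long genes. Rad51b, for a DNA repair protein, had 9 of 77 regions called higher and rose from 339 and 300 to 467 and 512 CPM (0.61 ± 0.08, adjusted p = 4.02e-06). Lrmda had 8 of 65 and rose from 362 and 344 to 513 and 616 CPM, Zfp608 8 of 34 with 1 lower, from 311 and 274 to 442 and 484 CPM, and Msi2, for an RNA-binding protein of neural progenitors, 5 of 72, from 279 and 277 to 370 and 414 CPM. Long genes collect more regions, and a region inside one may act on a neighbour. Among abundant genes outside the lists, those with the largest rises included A430057M04Rik, with 51.9 and 46.7 CPM and then 104 and 116 CPM (1.15 ± 0.11, adjusted p = 5.89e-08), and Gm815, with 103 and 94.9 and then 186 and 222 CPM (1.04 ± 0.11, adjusted p = 6.38e-08). When only regions within 10 kb were summed, Gm815 had -0.28 and A430057M04Rik was not called. Among genes that fell, Ly6c2 went from 275 and 330 to 189 and 211 CPM (-0.60 ± 0.10, adjusted p = 2.29e-04), Ifi202b, an interferon-inducible gene, from 26.5 and 25.7 to 15.1 and 14 CPM (-0.84 ± 0.17) and Slco1c1, for a thyroid hormone transporter, from 44.4 and 41.2 to 24 and 29.9 CPM (-0.68 ± 0.14). Ly6c2 and Ifi202b belong to families of near-identical copies, where reads can be placed on the wrong copy, and are uncertain for that reason. Ly6c2 and Slco1c1 were not called with regions within 10 kb. Ly6c2 was also not called without day 6 replicate 2, Ifi202b not without day 7 replicate 2 and Slco1c1 not without replicate 1 of either day.

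Of the 66 genes named by rule that passed the threshold, 44 and 31 kept their call with day 6 replicates 1 and 2 left out, 49 and 22 with day 7 replicates 1 and 2 left out, and none reversed. The number of genes called fell from 681 higher and 129 lower to between 93 and 335 higher and between 6 and 43 lower. With library size only the gene calls were 327 higher and 305 lower, so 51.7% were higher instead of 84.1%, and with loess 337 and 268, or 55.7%. The excess of opening over closing genes thus depended on the scaling, whereas 327 of the 327 genes higher with library size only and 329 of the 337 higher with loess were among the 681.

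**Figure D5:**
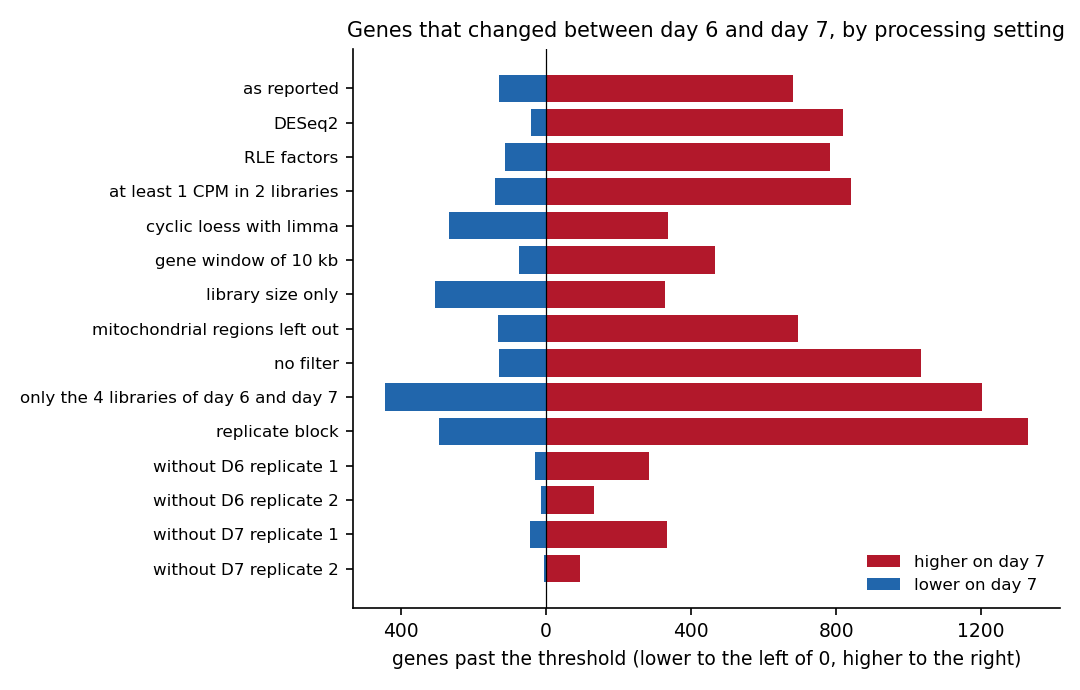
Number of genes past the threshold under each processing setting, lower on day 7 to the left of 0 (blue) and higher to the right (red). As reported there were 129 lower and 681 higher, and the counts went down to 6 and 93 without day 7 replicate 2.

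The authors' deposited motif tables for the day 6 and day 7 comparison rank known motifs by enrichment in target regions over background regions. The authors' deposited tables name their target sets up and down without saying which day is the reference, and the choice of targets is not given. In the authors' deposited table for the up set, with 1257 targets, the first 5 motifs were Sox3, Sox2, Sox10, Sox17 and Sox6, members of 1 family of HMG-box factors with near-identical motifs. In that authors' deposited table the Sox3 motif was in 75.34% of targets and 45.15% of background, with a natural log p of -240.3. Hoxc9 ranked 7 in the authors' deposited table, at 33.25% against 12.44%, and Rfx2 ranked 11, at 12.09% against 2.61%. The best motif of bHLH factors, the family of Neurog1, was Ap4 at rank 25 in the authors' deposited table, at 47.41% against 35.32%. That of the nuclear factor I family ranked 251 there, at 11.54% against 11.53%. In the authors' deposited table for the down set, with 154 targets, the first 5 motifs were Sox6, Sox2, Sox4, CDX4 and Sox15. The CDX4 motif was in 39.61% of targets against 19.06% of background, in the authors' deposited table. Sox motifs thus headed both sets, and the best motif of the Rfx family ranked 11 in the up set and 108 in the down set, in the authors' deposited tables. Another table, named for a joined set of 47 targets, began with Sox10, Sox2, Sox17, LEF1 and Sox3 in the authors' deposited table.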

How the data were processed

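The deposited counts are raw counts per merged region and library, and the counter is not given in the sources used here. Per the submitters' processing notes, the tools were MACS2 2.1.1.20160309, HOMER 4.10, bedtools, HISAT2 2.1.0 and SAMtools and the build was mm10; which tool did what is not recorded there. The deposited peak lists, 1 per library, give each peak's fold enrichment as a ratio and the -log10 of its q-value, and were used here for positions and peak presence. The deposited motif tables give each motif's enrichment score as a natural log of its p-value, checked against a binomial test (ratios of 0.991 to 1.01), and the percent of targets and of background that hold it.

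Count tables carry no coordinates. Merging the 10 peak lists with chromosomes sorted as text gave 246799 regions, the number of rows in each count table. In that order a library's own peaks never fell on a row with 0 counts, against 1095 to 9931 in numeric order. Regions were assigned to the nearest of 21900 protein-coding gene spans of RefSeq (GRCm38.p6) within 50000 bp. That table gives no exons. All 349 list genes were found in it by symbol, and 347 were tested. Promoter windows came from the RefSeq table of 32851 start sites, which is not complete.

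Counts were tested in edgeR 4.0.16 (R 4.3.3) with filterByExpr, TMM factors, 1 quasi-likelihood fit of all 10 libraries by group and the contrast day 7 minus day 6, two-sided, with Benjamini-Hochberg adjustment over all 173175 regions or 19041 genes and a threshold of 0.05. The filter removed 73624 regions. Errors of log2 changes are standard errors derived from the F statistic, and CPM are counts divided by the TMM-scaled library size and multiplied by 1e6. The steps were tested on simulated data, with changes placed in features above the median abundance. For regions, 5 of 50 log2 changes of 1 and 6 of 50 of -1 were found. For log2 changes of 2 and -2 it was 47 and 32 of 50. For genes all 50 of each were found, but changes smaller than these, like most of those reported for genes, were not simulated. A region or gene that was not called is thus not shown to be unchanged. Floors cover counting error only. The replicate number entered the fit only in an alternative. Same-numbered libraries had correlations of their deviations between -0.00139 and 0.0636 over all pairs of groups. These correlations run over all tested regions, most of them with low counts. In every group replicate 2 had fewer counts and a higher mitochondrial share than replicate 1, and a shared batch was not tested.

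The groups compared, the marker loci and the 24 gene lists were chosen with earlier results of these data known, and lists share 23 genes, so they are not independent. Named genes were the 3 markers, the up to 3 called members of each list of lowest p (1 where none passed), every Hox gene past it, the 5 abundant unlisted genes that changed most in each direction, and up to 5 with most called regions per direction. Named regions were the 6 per direction with the smallest p and all called ones at the markers. Other list members are given to complete their list, and a few named by these rules are not reported here. Lists are described by counts and medians, with no set test. DESeq2 1.42.0, limma 3.58.1 and other alternatives are reported at the end.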

Additional observations from a re-analysis of the deposited data

How the results depend on the processing

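Calls were fewest with a library left out, when 1 library stands for a day and is assumed to vary like the other groups: 221 to 851 regions were higher and 31 to 153 lower, and 93 to 335 genes higher and 6 to 43 lower, against 1686, 358, 681 and 129 as reported. In the same settings 1 to 11 of the 12 neural progenitor genes rose, and 1 to 8 of Hox groups 1 to 4. Of the calls without day 7 replicate 2, 221 of 221 higher regions, 93 of 93 higher genes, 21 of 31 lower regions and 6 of 6 lower genes were among those reported, and without day 7 replicate 1 this was so for 47 of 153 lower regions. DESeq2 called 120 regions and 42 genes lower. Cyclic loess gave 498 and 196 regions and 337 and 268 genes, higher and lower. Library size only gave 1084 higher regions, and 327 and 305 genes. With the 4 libraries of day 6 and day 7 alone, 650 regions were lower, and 1203 genes were higher and 443 lower. Without a filter 1035 genes were higher, and with a 10 kb gene window 74 were lower and 7 neural progenitor genes rose. With regions held to at least 2-fold change, 1054 were higher. Neurog3 and Gm815 turned to -0.32 and -0.28 with the 10 kb window, since their called regions lie farther out; the cause of the other shifts was not tested. RLE factors, a filter of at least 1 CPM in 2 libraries and leaving out mitochondrial regions kept the counts of called regions and genes within 1.5 times. With the replicate block 2199 regions were higher and 496 lower, and 1328 genes higher and 295 lower. Whether same-numbered libraries share a batch was not tested, so this says nothing of a stronger effect. The 66 named genes that passed all kept their call under the block.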

Other observations

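On the X chromosome 13 of 4428 tested regions were called higher, or 0.294%, against 0.665% to 1.25% on each autosome and 0.974% over all tested regions. The median log2 change on the X chromosome was 0.03, and medians on the autosomes lay between -0.08 and 0.01. On the X chromosome 9 regions were called lower. No test of this difference was made.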
